A study of Mus musculus with 2 samples.

Results

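Within a culture of proliferating mouse hippocampal neural stem cells, 163 single cells were compared by their deposited cell cycle phase, S, G2M or G1. Cells were chosen by this phase, which rests on measured expression of the same cells. They are 61 S cells, 79 G2M cells and 23 G1 cells, out of 164 activated cells and 640 cells in the series, and the 1 activated cell with phase G0 was left out. Hippocampal tissue of C57BL6/J males, 6 weeks old, gave the cells, which were grown in serum-free medium with 20 ng/mL FGF-2 and EGF and 5 µg/mL heparin, which keeps them dividing and is called activated here. Single cells were sorted into 384-well plates from 4 gates of cell autofluorescence (Low, Low-mid, Mid-high and High), and RNA was counted from poly(A) tails by SORT-seq. The same plate holds a culture that had been made quiescent for 3 days with 50 ng/mL BMP-4 without EGF and then returned for 48 h to activation medium with 0.5 µg/mL noggin, a BMP antagonist. Its 50 S, 58 G2M and 21 G1 cells are set beside the activated values. Each state is 1 set of cells without replicates, called a culture here, and the labels do not say whether cultures were pooled for it. No test was therefore possible and no p-value is given. Cells and gates are not replicates, and the intervals below cover counting error only.

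A dividing cell copies its DNA in S phase, prepares for division in G2 and separates its chromosomes in mitosis (M). Transcription follows this order: E2F factors drive genes of replication towards S phase, and a later wave, bound by the MuvB and B-MYB complexes and by NF-Y, drives genes of mitosis. G1 is the interval in which a stem cell either commits to another round through D-type cyclins or stops, for example through the p53 target p21. Adult hippocampal neural stem cells are mostly quiescent in the animal, and the culture in growth factors is a common model of their active state.

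Phase was set from expression of the same cells, so the genes of the score are a description and not a result. In each of the 163 cells the deposited phase was the larger of the S and G2M scores, and G1 where both were below 0. The median S score was 0.36 in S cells, 0.08 in G2M cells and -0.15 in G1 cells, and the median G2M score was 0.08, 0.50 and -0.18. The phases are ranges of these scores and not separate types: 10 S cells and 5 G2M cells had scores within 0.1 of each other, and 8 G1 cells lay within 0.1 of 0. Just inside and outside the border, the smallest gap between both scores was 0.0035 in S cells and 0.0089 in G2M cells, and the G1 cell closest to 0 had a larger score of -0.0020.

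**Figure D1:**
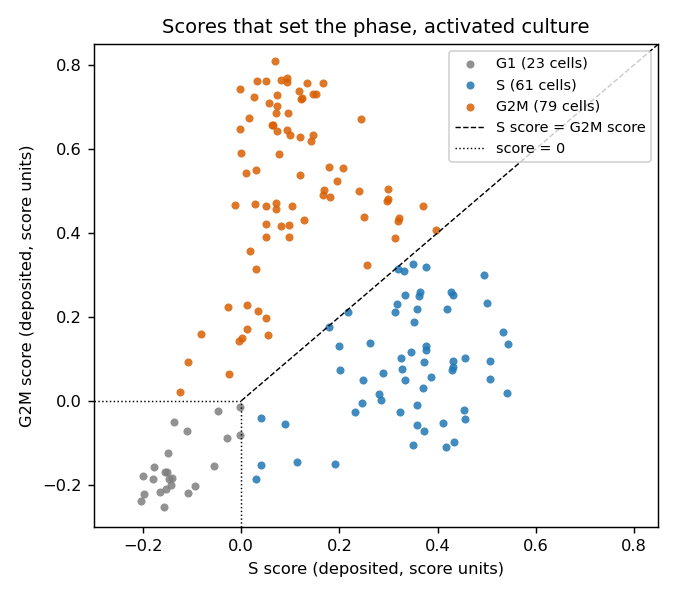
Deposited S score (x axis) against deposited G2M score (y axis), both in score units, with 1 point per cell of the activated culture. The 61 S cells lie below the dashed line of equal scores, the 79 G2M cells above it, and the 23 G1 cells in the corner where both scores are below 0, with no gap between the ranges.

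Summed over cells, the table held 2335600 counts in S cells, 3116006 in G2M cells and 1086455 in G1 cells, and single cells held between 7228 and 97009. All 7 markers of neural stem and progenitor cells, among them Sox2, Sox9, Pax6, Nes, Fabp7 and Vim, were present in each phase, with a summed level of 7025 CPM (counts divided by the library total and scaled to 1e+06) in G1, 6462 in S and 6172 in G2M cells. Gate by gate, their sum ranged from 6933 to 7162, from 6153 to 6749 and from 5859 to 6410 CPM. Dcx and Neurod1 of neuroblasts and Kdr and Rgs5 of vessels were at 0 in all 3 phases, and Cx3cr1 and Csf1r of microglia and Pecam1 of vessels had at most 1 count per phase. Of the neuron markers, Tubb3 had 7, 34 and 29 counts and Rbfox3 0, 1 and 4 counts in G1, S and G2M cells. Longer lists summed to 20.3, 12 and 11.6 CPM in G1, S and G2M cells for 5 microglia genes and to 15.6, 14.1 and 13.5 CPM for 8 endothelial and mural genes. The longer list of 18 neuron and neuroblast genes summed to 1129, 1282 and 1203 CPM. It holds Sox11, also a progenitor marker here, but other members made up the larger part of each sum. The 6 astrocyte markers summed to 163, 146 and 165 CPM, most of it Aldh1l1. A longer list of 17 astrocyte genes summed to 1155, 927 and 1003 CPM. Olig1 and Olig2, transcription factors of the oligodendrocyte lineage that cultured progenitors also express, reached 1228 and 1274 CPM in G1, 813 and 819 in S and 753 and 1046 in G2M cells. Pdgfra, which marks oligodendrocyte precursors, had 0, 9 and 4 counts in the same order. Of the 163 cells, 162 were in the same deposited cluster. The wells of 131 of the 163 cells were also kept on the other plate, since well barcodes repeat between plates by design. No G1 cell came from the Low gate, against 10 S and 24 G2M cells. Levels of G1 cells below are thus without that gate. Ratios of G1 over S and G2M cells in all gates, and list medians of these ratios, keep its S and G2M cells.

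Outside 4 lists of cycle genes, few of the measured genes differed between S and G2M cells by the measure used here. Of 6485 genes measured in S and G2M cells (at least 100 counts in sum and a count in at least 10% of the cells), 353 (5.44%) had a log2 ratio of at least 0.5 in size with the same sign in all 4 gates, on CPM with 10 added. Such genes are called higher or lower from here on. Among the 6185 measured genes outside the 4 lists of cycle genes, 95 were higher in G2M (1.54%) and 85 were higher in S (1.37%). The lists do not hold every gene of the cycle: Chek2 and Cdk5rap2 are among the former, and Cdk2 and Skp2 among the latter. The median ratio of all measured genes was -0.01, and the middle 90% of genes outside the cycle lists lay between -0.37 and 0.37. For scale, and as a description only, the named ratios of the cycle lists were those of Ube2c (2.38), Cenpe (2.34), Gas2l3 (2.33) and Ccnb1 (2.26) towards G2M and of Cdc6 (-2.38), Cdt1 (-2.12), Zfp367 (-2.12) and Ung (-1.85) towards S. Mki67 was 1.16, Top2a 0.98 and Pcna -0.56.

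**Figure D2:**
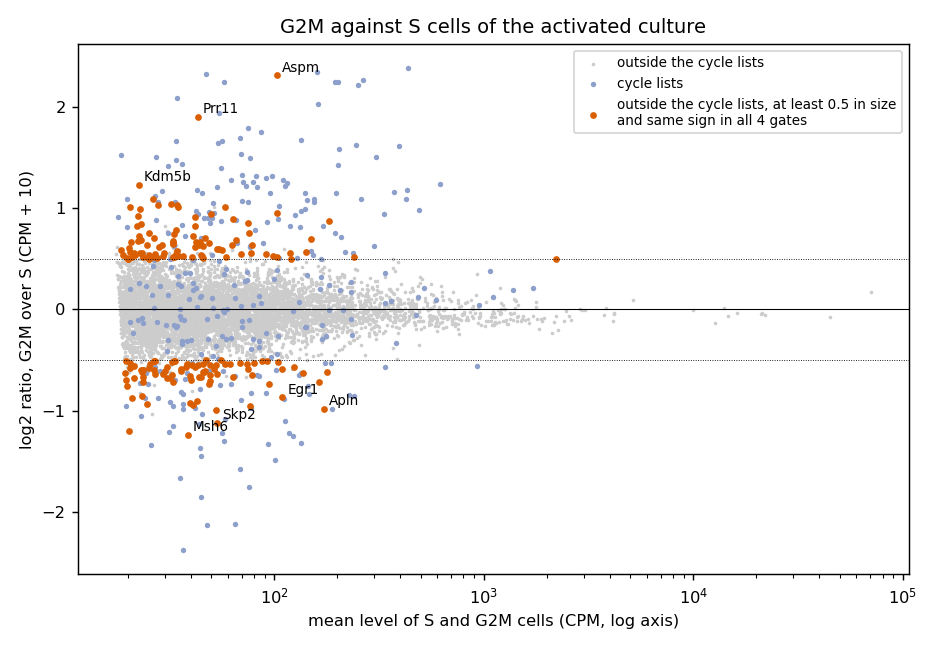
Each point is a gene measured in S and G2M cells, by its mean level (x axis, CPM, log axis) and its log2 ratio of G2M over S (y axis, CPM + 10). Orange points, the 95 higher and 85 lower genes outside the cycle lists, reach up to Aspm at 2.31 and down to Msh6 at -1.24 among named genes, and most other points outside the lists, in grey, lie between the dotted lines at 0.5 and -0.5.

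The 2 genes furthest towards G2M outside the lists are themselves known from mitosis. Aspm, which works at spindle poles and sets brain size, was at 11.5, 19.3, 29.5 and 41.8 CPM in S cells from the Low to the High gate, and at 195, 168, 176 and 174 CPM in G2M cells. The ranges over gates did not overlap, and the log2 ratio was 2.31 (95% counting interval 2.02 to 2.60, SD over gates 0.60). After every cell was thinned to 20104 counts, 88.7% of 71 G2M cells held an Aspm count (exact binomial interval 79.0 to 95), against 37.0% of 54 S cells (24.3 to 51.3). Unthinned, the shares were 91.1% and 49.2%. Prr11, a proline-rich protein of dividing cells, was at 0, 11.9, 15.4 and 14.5 CPM in S cells and 60.0, 58.2, 91.2 and 76.0 CPM in G2M cells, a ratio of 1.90 (1.55 to 2.23, SD 0.52). Both are known from dividing cells and are not in the 4 lists.

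The promoters of these genes are shown because a CHR element (TTTGAA) and CCAAT boxes mark many promoters of the mitotic wave. The E2F motif searched was TTTNGCGC, and all 3 were searched on both strands in the 300 bases from 250 before to 50 after the start in RefSeq (GRCm38.p6). Printed are the 100 bases before the start, 5′ to 3′ on the strand of the gene, with matches of any of the 3 motifs in capitals. Aspm (chr1:139454673-139454772, plus strand) and Prr11 (chr11:87108715-87108814, minus strand) carry CCAAT boxes here, read as ATTGG on the other strand, and a CHR match just past the start. Ube2c (chr2:164769829-164769928, plus strand), of the cycle lists, carries a CHR match, read as TTCAAA, and CCAAT boxes. For Odf2 (chr2:29889717-29889816, plus strand) 1 of its 4 listed starts is shown, with a CHR match and a CCAAT box. Zfp367 (chr13:64153200-64153299, minus strand), of the cycle lists and higher in S, carries an E2F match at both of its listed starts, of which 1 is shown.
Aspm: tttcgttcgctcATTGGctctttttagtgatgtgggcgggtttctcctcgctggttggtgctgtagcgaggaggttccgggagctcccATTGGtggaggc
Prr11: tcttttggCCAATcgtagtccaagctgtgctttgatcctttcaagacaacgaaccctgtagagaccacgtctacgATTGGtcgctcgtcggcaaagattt
Ube2c: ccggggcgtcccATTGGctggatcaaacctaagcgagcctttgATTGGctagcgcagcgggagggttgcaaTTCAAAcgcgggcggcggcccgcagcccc
Odf2: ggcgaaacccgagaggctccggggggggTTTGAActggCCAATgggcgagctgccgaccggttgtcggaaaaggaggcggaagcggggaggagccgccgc
Zfp367: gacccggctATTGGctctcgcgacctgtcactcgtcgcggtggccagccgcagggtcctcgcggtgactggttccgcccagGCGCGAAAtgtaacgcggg
These 5 were picked because they hold matches. No CHR match was found for Kdm5b, Gja1, Erf, Glrx, Mtmr12 and Zfp518b among the genes named below, nor for the cycle genes Ccnb1, Cenpe and Gas2l3, and no E2F match for Cdc6 and Ung. Of the genes higher in S, Trmt2a and 1 start of Skp2 held a CHR match.
A CHR match was present in 63.3% of 90 promoters of the cycle genes higher in G2M, in 22.7% of 88 promoters of genes higher in G2M outside the lists, and in 9.0% of 78 promoters of genes higher in S outside the lists. It was present in 11.3% of 6369 promoters of all genes measured and in 17.9% of all 32851 promoters in the table. CCAAT was found in 72.2%, 60.2%, 35.9%, 38.3% and 37.4% in the same order. The E2F match was present in 22.9% of 70 promoters of cycle genes higher in S, 2.6% of those higher in S outside the lists and 3.1% of all genes measured. These shares are of listed starts, so a gene with several starts, such as Odf2 or Zbed3, can count more than once. Where windows overlap, as for Odf2, the same site can count again. A CCAAT box can lie beside either of the other motifs, and a match is not evidence of binding. Promoters were found for 70 of 95 and 67 of 85 of the called genes outside the lists.

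The other genes named for the largest ratios towards G2M have varied roles. Kdm5b, a demethylase of histone H3 lysine 4, was at 3.9, 8.9, 9.0 and 12.9 CPM in S cells from the Low to the High gate and 43.4, 31.3, 30.9 and 36.1 CPM in G2M cells. Its ratio was 1.23 (0.84 to 1.58, SD 0.43), and each gate of G2M cells stood above all gates of S cells. In G1 cells Kdm5b was at 42.9, 41.0 and 66.7 CPM from the Low-mid to the High gate, so that S cells were lowest. Among thinned cells 13% of S cells, 46.5% of G2M cells and 66.7% of 21 G1 cells held a Kdm5b count, and unthinned 26.2%, 67.1% and 78.3%. Gja1, the gap junction protein connexin 43 and an astrocyte marker, was at 15.4, 17.8, 7.7 and 14.5 CPM in S cells and 50.0, 33.6, 30.9 and 41.3 CPM in G2M cells (ratio 1.09, 0.71 to 1.44, SD 0.27). No other astrocyte marker measured was called higher in G2M, and the astrocyte list had a median of 0.11 with 1 of 8 members higher.

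E2f5, an E2F that acts mainly as a repressor, was at 19.3 CPM in S and 49.8 CPM in G2M cells (ratio 1.03, 0.68 to 1.37, SD 0.46), and its gates ranged from 11.2 to 26.9 against 40.3 to 57.5 CPM. Erf, an ETS repressor, was at 17.6 and 46.9 CPM (ratio 1.05, SD 0.49), but in the Low gate the levels were close, at 30.8 and 33.4 CPM. When each cell had equal weight, the Low gate of Erf turned to -0.05 and it was no longer called. Odf2, a protein of the centriole appendages, was among the steadiest over gates, with 29.7 to 32.1 CPM in S and 60.5 to 73.4 CPM in G2M cells (ratio 0.95, 0.63 to 1.26, SD 0.08). Mtmr12, a myotubularin-related protein, was at 10.3 and 30.8 CPM (ratio 1.01, SD 0.08). Glrx, a glutaredoxin that reduces mixed disulfides, was at 35.1 and 80.9 CPM (ratio 1.01, 0.71 to 1.31, SD 0.62). The groups did not overlap: its S gates ranged from 17.8 to 59.5 CPM and its G2M gates from 68.4 to 85.1 CPM. Zbed3 (1.02), Zfp518b (0.99) and Cdc42ep4, an effector of the GTPase Cdc42 (0.92), completed the 12 named genes. Cdkn1b, which encodes the inhibitor p27, was at 88.5 to 104 CPM in S and 133 to 164 CPM in G2M gates, at the threshold with a ratio of 0.50. Malat1, a nuclear long non-coding RNA, was at 1831 CPM in S and 2595 CPM in G2M cells, also 0.50.

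The genes with the largest ratios towards S also have varied roles. Msh6, of mismatch repair and the only 1 of 14 measured DNA repair genes called higher in S, was at 61.6, 47.5, 69.3 and 54.6 CPM in S cells and 36.7, 26.9, 8.4 and 14 CPM in G2M cells from the Low to the High gate. The groups did not overlap, and the ratio was -1.24 (-1.56 to -0.91, SD 0.71). Skp2, the F-box protein that marks p27 for degradation and the only 1 of 24 cycle ubiquitin ligases called, was at 65.4, 74.3, 92.4 and 64.3 CPM in S cells and 31.7, 33.6, 36.5 and 24.3 CPM in G2M cells (ratio -1.12, -1.42 to -0.82, SD 0.13). A Skp2 count was held by 77.8% of thinned S cells and 45.1% of thinned G2M cells, and unthinned by 91.8% and 55.7%. In RNA, Skp2 and Cdkn1b, the latter only at the threshold, stood in opposite directions between the phases. Protein was not measured, and a link between them was not tested. Trmt2a, a tRNA methyltransferase, was at 73.7 and 32.1 CPM (-0.99), Samd1, which binds unmethylated CpG islands, at 104 and 48.8 CPM (-0.96), and Rnf168, a ubiquitin ligase at DNA breaks, at 57 and 24.7 CPM (-0.95). Hap1 (-0.94), Ctdspl, a phosphatase that acts on RB (-0.90), Rnf144a (-0.87) and Casp2 (-0.85) followed.

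Of the named genes higher in S, 3 depended on a setting or on few cells. Apln, a secreted peptide, was at 232 CPM in S and 113 CPM in G2M cells (ratio -0.98, -1.17 to -0.80, SD 0.45). The 3 S cells richest in it held 27.4% of its counts in S cells, and without them the level was 184 CPM. Without the 10% of cells with the largest totals its ratio was -0.56, with 0.06 in the High gate, so it was no longer called. Egr1, an immediate early gene, was at 144 and 74.5 CPM (-0.87), but in the Low-mid gate both phases were close, at 106 and 103 CPM. Its call was lost under scaling by the median ratio, and after thinning its ratio was -0.47. Igsf21, a synaptic membrane protein, was at 54.8 and 24.1 CPM (-0.93), and it was not called with equal weight per cell (-0.74) or after thinning (-0.61).

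**Figure D3:**
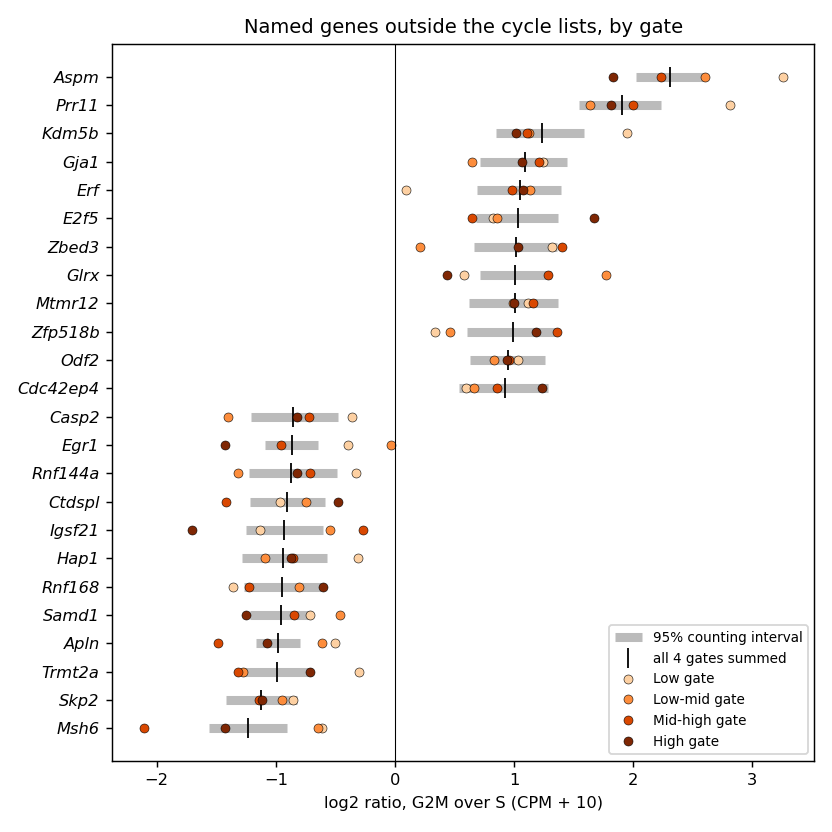
Log2 ratio of G2M over S (x axis, CPM + 10) of the 24 named genes outside the cycle lists. Dots are the 4 gates, black ticks the sum over gates, and grey bars the 95% counting interval; all 4 dots of a gene lie on the same side of 0, with Egr1 in the Low-mid gate and Erf in the Low gate closest to it.

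Most gene groups had medians near 0 between S and G2M. Of 73 measured cytosolic ribosomal proteins none was called, nor of 81 genes of oxidative phosphorylation, 34 of the proteasome, 32 of cholesterol and fatty acid synthesis, 29 chromatin remodelers or 23 aminoacyl-tRNA synthetases. Their median ratios were -0.09, -0.06, -0.02, -0.03, -0.04 and -0.01, against -0.01 for all genes. Ribosome biogenesis stood lowest of the lists outside the cycle, with a median of -0.26 that ranged from -0.35 to -0.19 over gates. Of its 47 members 4 were higher in S, where 1.37% of genes outside the cycle lists were, and none in G2M: Nop2, Nip7, Nolc1, a nucleolar chaperone (168 against 106 CPM, -0.63), and the helicase gene Ddx27 (62.5 against 36.3 CPM, -0.65). Nolc1 in S cells was at 208, 181, 173 and 132 CPM from the Low to the High gate, above all G2M gates (85.1 to 122 CPM). Nucleotide synthesis had a median of -0.13 with 2 of 30 members higher in S: Ppat, which starts purine synthesis (-0.65), and Shmt1, of folate metabolism (-0.52). Among DNA methylation and Polycomb genes 2 of 17 were higher in S and the median was -0.01, Eed at -0.51 and Cbx6 at -0.57. Ccnd1 (974 and 949 CPM), Ccnd2 (733 and 679 CPM), Egfr (65.5 and 58.7 CPM) and Nes (639 and 606 CPM) were not called, with ratios of -0.04, -0.11, -0.14 and -0.07. Hes1, a Notch target, was at 126 and 88.7 CPM (-0.46), short of the threshold. Pax6, a progenitor factor, was at 25.7 and 43.3 CPM and called at 0.58, the only 1 of 16 measured progenitor markers, of which 8 lay above 0 (median 0.07).

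The same measure in the 48 h exit culture uses other cells of the same plate. There 394 of 4404 measured genes (8.95%) were called. Of the 95 genes higher in G2M, 55 passed the filter there, and 51 of these had a ratio above 0 (45.4% of genes outside the lists did), 25 of them called, where 3.13% of the 4154 genes measured there were higher. Of the 85 genes higher in S, 42 passed, 37 had a ratio below 0 (54.6% of genes did) and 11 were called, where 2.55% were. Side by side, the activated and 48 h ratios were 2.31 and 2.36 for Aspm, 1.90 and 1.94 for Prr11, 1.02 and 1.08 for Zbed3, 0.95 and 0.91 for Odf2 and 1.01 and 0.89 for Glrx. They were -1.24 and -0.97 for Msh6, -0.96 and -1.16 for Samd1 and -1.12 and -0.55 for Skp2. Gja1 was 1.09 in activated and 0.10 (-0.28 to 0.48) in 48 h cells, where S cells were already at 53.9 CPM. Erf was 1.05 and 0.24, and Egr1 -0.87 and -0.17. Whether these differ between cultures was not tested.

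Among the genes called in G1 cells most were lower. These calls need 1 sign in 3 gates, not 4, and rest on 23 cells, so their number cannot be set against that for S and G2M. Of 6984 genes measured, 1050 (15.0%) were called, and outside the cycle lists 196 of 6678 were higher in G1 (2.94%) and 584 lower (8.75%) than in S and G2M cells together. Higher genes were thus 25.1% of those called. Scaled so that the median ratio was 0, they were 274 of 736, or 37.2%. Without the S and G2M cells of the Low gate, which holds no G1 cells, 178 genes outside the cycle lists were higher and 519 lower. G1 is what is left when both scores are low, so the lists of S and G2M genes are low in it by construction, with medians of -1.94 and -2.09 for the scoring genes. The highest group was that of p53 targets and CDK inhibitors. Of its 14 measured members 9 were higher and 1 lower, with a median of 0.82 that ranged from 0.49 to 1.06 over gates, against -0.05 for all genes. The filter here sums counts of G1, S and G2M cells, so a gene can pass through its G1 counts. In S and G2M cells without the G1 cells, 11 members passed. The 9 of 14 and the median of 0.82 are thus a description, since G1 counts helped to decide which members entered. How far they depend on this was not tested.

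Cdkn1a encodes p21, which blocks cyclin-dependent kinases. It was at 190, 288 and 850 CPM in G1 cells from the Low-mid to the High gate. In S cells it was at 69.3, 155, 122 and 342 CPM and in G2M cells at 127, 171, 235 and 312 CPM from the Low to the High gate. The level was highest in the High gate in each phase, and the groups overlapped across gates, while within each gate G1 cells were highest. The ratio of all G1 cells over S and G2M cells was 1.44 (1.30 to 1.57), but the 3 gates gave 0.22, 0.68 and 1.38, and without the High gate the ratio was 0.67. Of all Cdkn1a counts in G1 cells 55.2% came from 3 cells, and with the 3 richest cells of each phase left out the levels were 334 CPM in G1, 126 CPM in S and 192 CPM in G2M cells. Without the cells near the border of the phases the ratio was 1.75, but the Mid-high gate turned to -0.27 and Cdkn1a was no longer called. The part of the gate or of single cells in this result was not tested.

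Ccng1, a cyclin induced by p53, was steadier. It was at 172, 373 and 485 CPM in G1 cells from the Low-mid to the High gate, at 69.3 to 190 CPM in S gates and at 108 to 237 CPM in G2M gates. The ratio was 1.42 (1.26 to 1.58), with 0.76, 1.73 and 1.09 by gate. A count was held by 95.7% of G1, 80.3% of S and 86.1% of G2M cells unthinned and by 90.5%, 70.4% and 80.3% thinned. The mean count per thinned cell was 6.81, 2.15 and 3.04. Trp53inp1, a p53-induced nuclear protein, was at 36.7, 64.9 and 114 CPM in G1 gates, against 0 to 19.3 CPM in S and 15.4 to 29.5 CPM in G2M gates. Its ratio was the largest, at 1.81 (1.48 to 2.13), and the groups did not overlap. Eda2r, a death receptor of the TNF family, was at 61.3, 27.3 and 79.4 CPM in G1 gates and at most 27.3 CPM in S and 26.7 CPM in G2M gates (ratio 1.38, 1.01 to 1.73). G1 cells of the Mid-high gate were thus level with S cells of the High gate.

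The other members higher in G1 were Plk2, a polo-like kinase (58.0 CPM in G1, 21.0 in S and 18.3 in G2M cells, 1.21), Zmat3, an RNA-binding p53 target (94.9, 35.5 and 37.9 CPM, 1.16), Phlda3, an inhibitor of AKT (61.7, 25.3 and 30.5 CPM, 0.91), Gadd45g (0.73) and Bax, which opens the mitochondrial membrane (112, 68.1 and 80.9 CPM, 0.52). Mdm2, the ligase that degrades p53, was level at 64.5, 63.0 and 55.9 CPM (0.11). Trp53 itself was the member that was lower, at 51.6, 84.4 and 80.6 CPM (-0.58), and Cdkn1b was not called (-0.36). Of the apoptosis list, Bcl2l1, which protects against Bax, was at 101, 46.7 and 42.7 CPM (1.03), the only member of 10 called higher.

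Summed per cell over the 26 members in the table, the p53 group had a median of 1507 CPM in G1, 622 in S and 775 in G2M cells. G1 cells spread from 475 to 5437 CPM, so that some were as low as the S median. Gate by gate, the medians were 685, 1361 and 2163 CPM in G1 cells from the Low-mid to the High gate, 542, 577 and 872 in S cells and 695, 745 and 845 in G2M cells. In the Low-mid gate, with 6 G1 cells, G1 was therefore level with G2M. In the 48 h exit culture the medians were 798 CPM in G1, 650 in S and 1178 in G2M cells, so that G2M cells were highest. Whether this order differs between the cultures was not tested. There Cdkn1a was at 388, 264 and 555 CPM and Ccng1 at 260, 115 and 264 CPM, and their ratios of G1 over the rest were -0.12 and 0.38. Their ratios of G2M over S were 1.04 and 1.13 there, both called, against 0.35 and 0.57 in the activated culture. Of the 21 G1 cells of that culture 16 lay in a deposited cluster that held none of its S cells. That cluster also held 3 of its G2M cells and all 22 of its G0 cells, which are not used here. All 23 activated G1 cells, by contrast, shared the cluster of nearly all activated S and G2M cells.

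**Figure D4:**
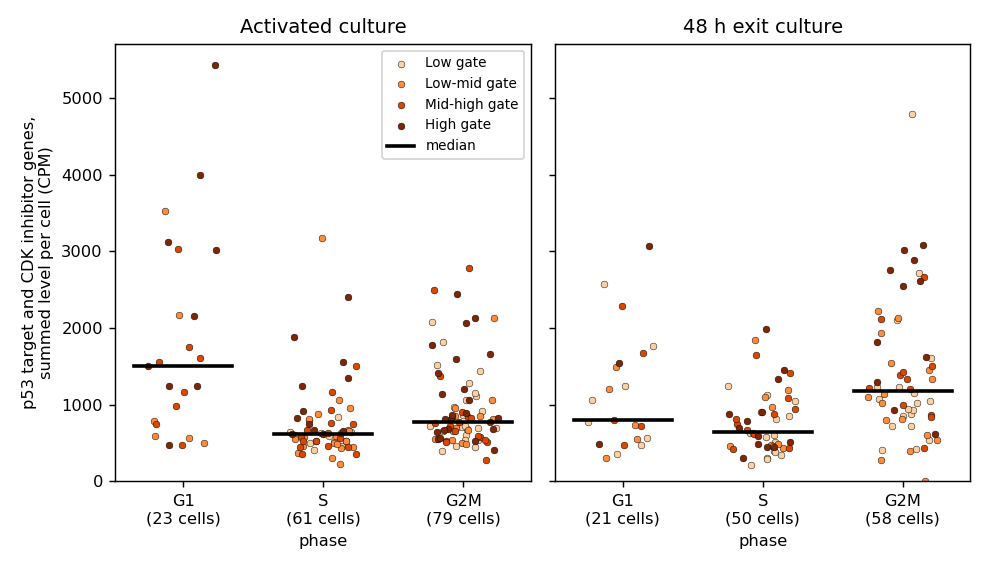
Summed level of the p53 target and CDK inhibitor genes (y axis, CPM) in each cell by phase, in the activated and the 48 h exit culture, with the gate in colour and the median as a bar. Activated G1 cells have the highest median, 1507 CPM, and a wide spread, while in the 48 h exit culture G2M cells have the highest, 1178 CPM.

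The D-type cyclins Ccnd1 and Ccnd2 were also higher in G1. They are the only 2 members higher of 12 measured in the list of G1 cyclins and RB genes, of which 4 were lower (Cdk2, Cdk4, E2f3 and E2f6) and which had a median of -0.25. Ccnd1 was at 1033, 1373 and 2193 CPM in G1 cells from the Low-mid to the High gate, at 733, 869, 913 and 1266 CPM in S gates and at 795 to 1044 CPM in G2M gates. The ratio was 0.90 (0.82 to 0.97), with 0.21, 0.67 and 0.97 by gate and 0.51 without the High gate. Ccnd2 was at 749, 1304 and 1478 CPM in G1 gates, but S cells of the High gate reached 1202 CPM against at most 585 CPM in the other S gates (ratio 0.90, 0.82 to 0.99). Cdk2, the kinase of S phase entry, was at 18.4 to 20.5 CPM in G1 gates, 63.9 to 91.1 CPM in S and 42.5 to 55.0 CPM in G2M gates (-1.28), with no overlap. Kdm5b (0.94) and Tob1, an antiproliferative factor (0.56), were among 8 genes that were higher in G1 and also higher in G2M than in S. The others were Ccng1, Dcxr, Pnrc1, Sacm1l, Ttyh2 and Zbtb20, and these 8 are 8.42% of the genes higher in G2M and 4.08% of those higher in G1. They were named for this pattern, after their values were seen.

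Further named genes higher in G1 were Dcxr, a carbonyl reductase (68.2 CPM in G1, 14.6 in S and 25 in G2M cells, 1.36), Pik3r3, a regulatory subunit of PI3 kinase (60.8, 12.4 and 22.8 CPM, 1.32), and Ube2h, a ubiquitin-conjugating enzyme (133, 47.5 and 53.3 CPM, 1.23). Sparc, a secreted matrix protein, was at 3021, 1756 and 1787 CPM (0.77), and Tnc, tenascin C of the stem cell niche, at 365, 264 and 212 CPM (0.62). Of 31 matrix and adhesion genes 4 were higher, where 2.94% of genes outside the cycle lists were. Their median was 0.11, but in single gates it ranged only from -0.003 to 0.06. Ctsd, a lysosomal protease, was at 128, 70.7 and 61 CPM (0.88), and the lysosome list had a median of 0.19 with 3 of 45 members higher, read against the same 2.94%. Olig1 was higher at 0.65, though in the Low-mid gate the ratio was 0.04.

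Genes lower in G1 came from chromatin, RNA processing and the nuclear pore as well as from replication. The counts below stand beside 8.75% of genes lower outside the cycle lists and a median of -0.03 over these genes. Of 35 nuclear pore and envelope genes 16 were lower and none higher, with a median of -0.54 (-0.52 to -0.43 in single gates). Nup160, of the pore scaffold, was at 6.1 to 9.5 CPM in G1 gates, 15.4 to 53.9 CPM in S and 28.4 to 37.9 CPM in G2M gates (-1.28). Of 60 splicing factors 22 were lower and none higher (median -0.45). Srsf7, a splicing regulator, was at 135, 279 and 231 CPM in G1, S and G2M cells (-0.86). Of 17 DNA methylation and Polycomb genes 8 were lower (median -0.44), with Suz12, a core subunit of Polycomb complex PRC2, at 81.1, 162 and 182 CPM (-1.01). Of 10 linker and variant histone genes 5 were lower (median -0.58). Of 29 chromatin remodelers 11 were lower (median -0.43), with Suv39h1, which methylates histone H3 lysine 9, at 15.6, 105 and 93.4 CPM (-2.08, -2.52 to -1.61) and Dek at 38.7, 137 and 111 CPM (-1.44).

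Besides Suv39h1, Aspm (-2.55) and Prr11 (2 counts in G1, -2.28, -2.50 to -1.77), the named genes lowest in G1 were Rtkn2, Fignl1, of recombination, Hirip3, Mdc1, a mediator of the DNA damage response, and Phf17, of a histone acetyltransferase complex. Their G1 levels rest on few counts, 2, 6, 3, 11 and 8, and their ratios were -2.18 (-2.40 to -1.66), -2.10, -2.0 (-2.29 to -1.48), -1.96 and -1.75. With 1 CPM added in place of 10, Prr11 moved to -4.09, Rtkn2 to -3.97, Hirip3 to -3.48, Aspm to -3.25, Fignl1 to -3.14, Mdc1 to -2.64 and Phf17 to -2.56. The progenitor factor Sox11 (142, 269 and 269 CPM in G1, S and G2M cells, -0.88) was lower too. Of 16 measured progenitor markers 3 were lower and none higher, 11 lay above 0 and the median was 0.16, with Nes at 0.45 and Vim at 0.22. Egfr (70.0, 65.5 and 58.7 CPM, 0.16) and Hes1 (0.25) were not called. In Hes1 the G1 gates ranged from 57.1 to 281 CPM.

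Lists of growth and metabolism did not share 1 direction in G1. Nucleotide synthesis had a median of -0.39 with 10 of 30 lower, ribosome biogenesis -0.23 with 9 of 48 lower, and glycolysis 0.18 with 2 of 16 higher, Hk1 (0.57) and Pfkp (0.68). Medians were near 0 in 4 other lists. They were -0.03 for 73 cytosolic ribosomal proteins, 0.06 for 81 genes of oxidative phosphorylation, -0.09 for 35 of the proteasome and 0.06 for 32 of lipid synthesis. Among these 4, 1 gene of lipid synthesis was called higher (Hsd17b7, 0.55) and 1 lower (Ebp, -0.51), and no other.

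**Figure D5:**
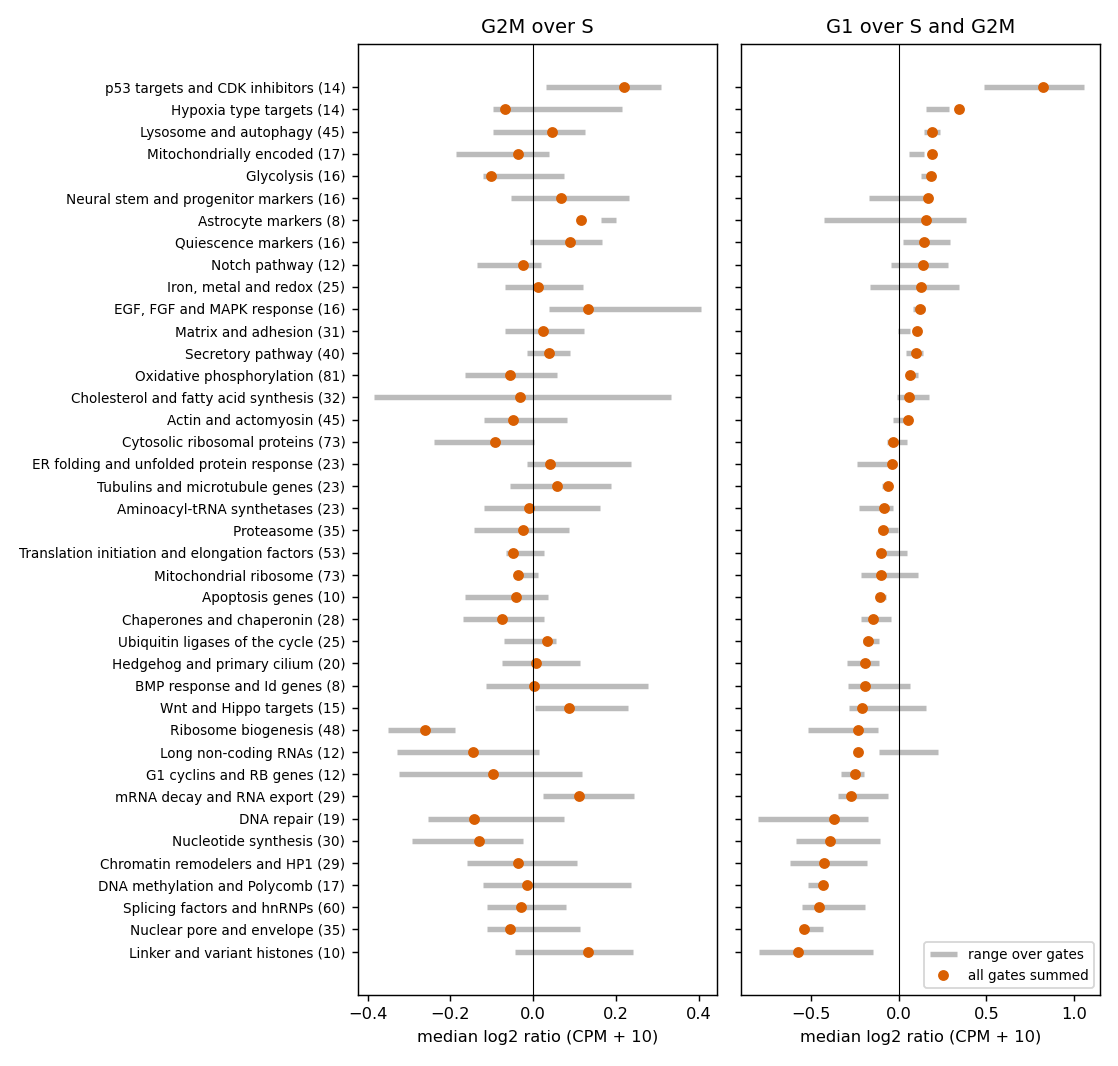
Median log2 ratio (x axis, CPM + 10) of gene lists outside the cycle with at least 8 members measured in S and G2M cells, for G2M over S (left) and G1 over S and G2M (right), with the number measured in G1 in brackets. Points are sums over all gates and grey bars the range of medians over single gates. In the right panel the points include S and G2M cells of the Low gate, which holds no G1 cells. There p53 targets stand apart at 0.82, over 14 members, of which 11 passed the filter without the G1 cells. Variant histone, nuclear pore, splicing, Polycomb and remodeler lists lie between -0.58 and -0.43.

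In the 48 h exit culture 745 of 4936 measured genes (15.1%) were called. There 121 of the 196 genes higher in G1 passed the filter, and 103 had a ratio above 0 (49.1% of genes did), 24 of them called, where 3.10% of the 4680 genes measured there were higher. Of the 584 lower genes 391 passed, 348 had a ratio below 0 (50.9% of genes did) and 172 were called, where 8.23% were lower. The nuclear pore list had a median of -0.70 there and the splicing list -0.22.

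Flow cytometry did not enter the phase calls. Cells were sorted by gates of autofluorescence, and those used number 34, 41, 43 and 45 from the Low to the High gate. Medians over all gates thus depend on how many cells were taken per gate, and need not describe the whole culture. The median forward scatter area, which follows cell size, was 59674 units in S, 64559 in G2M and 71009 in G1 cells. Within gates the medians of S and G2M cells were 45511 and 48559 in the Low gate, 55631 and 59570 in the Low-mid gate, 66680 and 69108 in the Mid-high gate and 94855 and 89648 in the High gate. G1 cells were at 50483, 68246 and 104202 from the Low-mid to the High gate, and no G1 cell came from the Low gate. Within gates they lay below the other phases once, between them once and above them once. Median autofluorescence was 3944, 4188 and 5792 units in S, G2M and G1 cells, and G1 cells had the highest median in each gate they occupy. In the same order it was 3452, 3109 and 3493 in the Low-mid gate, 4515, 4746 and 5537 in the Mid-high gate and 7166, 7194 and 7835 in the High gate. Counts per spike-in count had medians of 112 in S, 120 in G2M and 128 in G1 cells, with quartiles from 83.5 to 132, 77.8 to 157 and 91.7 to 171, which overlap. In G1 cells they were 84.5, 125 and 202 from the Low-mid to the High gate. The median percent of mitochondrial counts was 5.28 in S, 5.33 in G2M and 6.53 in G1 cells, and that of ribosomal protein counts 6.79, 6.41 and 6.37. Rn45s, the ribosomal RNA precursor, took 6.60%, 7.46% and 8.08% of counts in S, G2M and G1 cells. The part of these differences in the gene values was not tested.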

How the data were processed

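Mouse hippocampal neural stem cell cultures were measured by SORT-seq, 1 library per plate. Per the labels' protocols, the method follows CEL-Seq2, which tags RNA at its poly(A) end. BWA 0.7.15, R 4.2.0 and Seurat 4.1.1 and the builds hg19 and mm10 are named in the submitters' processing notes, and how phase, clusters and gates were set is not given in the sources used here. The deposited expected counts are transcript numbers that the authors corrected for molecules sharing an identifier, and 99.1% of entries became whole (tolerance 1e-06) when the correction for 4096 identifiers was undone. The deposited plate count table gave the spike-ins. The authors' per-cell table holds each cell's total count, its percent of mitochondrial and ribosomal protein counts, phase scores, and the deposited intensity of scatter and autofluorescence.

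Counts were summed per phase and gate and scaled to CPM, with 10 CPM added before log2. Genes needed 100 summed counts and a count in 10% of the cells. No test was run, since each state has no replicates. Intervals are exact (Poisson for sums, conditional binomial for ratios, Clopper-Pearson for shares, 95%) and cover counting error only. A gene was called where its log2 ratio was at least 0.5 in size with 1 sign in all 4 gates, or, for G1, in the 3 gates with G1 cells. Named outside the cycle lists, with predicted, mitochondrial and ribosomal protein genes left out, were the 12 called genes of largest ratio in each direction for G2M against S, 8 for G1, 2 per list, 4 cycle genes per direction and 10 fixed genes, some of which are not reported here. The 52 gene lists, 4 of them cycle lists with 346 genes in the table, and the comparison were chosen with earlier results of these data known. For shares, cells were thinned to 20104 counts, which left out 2 G1, 7 S and 8 G2M cells. Doublets were not called. Instead, the largest 10% of cells were left out as an alternative. The code was tested on simulated data. Python 3.11.15 was used with scipy 1.17.1, pandas 2.3.3 and numpy 2.4.6, and figures were drawn in matplotlib 3.10.9. The 48 h comparison of G1, totals without Rn45s and whole identifier counts were added after seeing the data.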

Additional observations from a re-analysis of the deposited data

Results flagged for a closer look

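Of 400 genes called in both cultures for G1 against S and G2M cells, 1 was found with opposite directions. Predicted, mitochondrial and ribosomal protein genes, where among the 400, were left out of this search. The gene found was Col11a1, a collagen chain. In activated cells it was at 40.5 CPM in G1 and 20.7 CPM in the other cells, a log2 ratio of 0.72 (0.31 to 1.11) that was above 0 in all 3 gates with G1 cells, though 0.09 in the Low-mid gate. In the 48 h exit culture it was at 18.5 and 37.4 CPM, a ratio of -0.73 (-1.37 to -0.06) that rests on 10 counts in G1 cells and was -0.0004 in the Low-mid gate. The difference between the cultures was not tested. Of 168 genes called in both cultures for G2M against S, none was found with opposite signs, with the same genes left out of the search and no test run.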

How the results depend on the processing

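The counts of called genes outside the cycle lists depended on the filter and on the amount added. With 1 CPM added they were 170 higher in G2M, 157 higher in S and 305 higher in G1. With a minimum of 20 counts they were 150, 160 and 323, and with 500 counts 12, 8 and 58, with 161 lower in G1, since fewer genes were measured. Leaving out single gates gave 87 to 116 genes higher in G2M, 93 to 121 higher in S, 178 to 297 higher in G1 and 519 to 712 lower in G1. Which genes were called changed more than these counts. Without the High gate, where fewer genes were measured, 49 of the 95 and 47 of the 85 calls were kept. For G1, 95 of the 196 higher and 385 of the 584 lower genes were kept. Of 170 ratios of named genes in G1, 49 moved outside their counting interval there. The highest count for genes higher in G1, 297, came without the Low-mid gate, of which 155 were among the 196 reported. With a gate left out a call needs 1 sign in fewer gates, except for G1 without the Low gate. This rule is looser, so these counts cannot be read as the part of a gate alone. The other settings kept all 4 counts within 1.5 times. Thinned cells kept 28 of the 95 and 28 of the 85 calls, with 3837 genes outside the lists measured in place of 6185. No called ratio of a named gene changed sign under any alternative that was run. Of the genes described above for having the largest ratios, those that were still measured and lost a call were Egr1, Igsf21, Erf, Apln and Cdkn1a, whose values are given there. No paired analysis was possible because each state has no replicates. G1 values rest on 23 cells, 6 in the Low-mid gate, and 3 counts, a floor set in advance, are 2.76 CPM in G1 cells.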
